A study of Mus musculus with 6 samples.

Results

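Antisense transcripts are RNAs read from the strand opposite a protein-coding gene. The 171 described here were chosen by their mean level: they are the rows that the deposited gene table gives the biotype antisense and whose mean over the 6 libraries was at least 1 FPKM (reads relative to gene length and library size). They are 6.05% of the 2826 antisense rows in a table of 54532 genes. Of the other antisense rows, 1165 were at 0 in every library and 1490 lay above 0 with a mean below 1. Each transcript was set beside the protein-coding gene on the other strand that it overlapped by gene start and end, and where several overlapped, beside the gene with the largest overlap. Such a neighbour was found for 148 transcripts, of which 17 overlapped more than 1 coding gene, and 23 had none. The 148 pairs held 147 different coding genes, because Runx2os1 and Runx2os2 both overlapped Runx2.

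RNA sequencing was done on 6 mouse libraries labelled MIN6, an insulinoma-derived beta cell line. Of these, 3 (sh2) had PP2Ac knockdown, directed at the subunit that carries the activity of protein phosphatase 2A, and 3 (shc) had the control genotype; the names of both groups contain sh, and no lipid treatment is named for either. The comparison asks which transcripts differ when the phosphatase is depleted. No source used here says whether the libraries came from separate cultures, so the p-values measure the spread between these libraries, which may be technical.

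Antisense RNAs are usually non-coding and are often made at low levels. Some start close to the promoter of the coding gene and are read away from it, some lie within its introns, and some run into its end. Many are short-lived, being cut or degraded in the nucleus by the Integrator complex, to which PP2A binds, and by the RNA exosome. PP2A on Integrator removes phosphates that are placed on RNA polymerase II and its factors on the way into elongation.

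The targeted transcript was low in every knockdown library. Ppp2ca, the gene of the catalytic alpha isoform, averaged 10.8 ± 0.617 FPKM in knockdown and 37.6 ± 4.33 FPKM in control (SD, n = 3 each), so 28.7% of the control level was left (exact two-sided permutation p = 0.1, the smallest that 3 against 3 libraries can give). Ppp2cb, the gene of the beta isoform, averaged 86.9 ± 3.45 FPKM in knockdown and 101 ± 10.6 FPKM in control, a log2 change of -0.21 that did not pass the test (limma adjusted p = 0.0660). The fit passed it under 4 alternatives, among them median-of-ratios scaling at -0.26 and leaving out control replicate 3 at -0.28. The labelled cell type was not borne out by its defining transcripts. Of 11 beta cell markers, the mean was under 1 FPKM for 9, and all 6 libraries had 0 for 5 of them, including the insulin genes Ins1 and Ins2. The summed FPKM of these 11 was 8.16 to 9.78 in knockdown and 3.01 to 4.70 in control libraries, mostly from Pdx1 and Mafa. All 5 mesenchymal markers were higher in knockdown, with a summed level of 999 to 1139 FPKM against 413 to 471 FPKM in control. The 3 duct markers summed to 352 to 391 FPKM in knockdown and 681 to 849 FPKM in control, and the 3 immune markers to 2.01 to 2.62 FPKM in knockdown and 14.3 to 20.9 FPKM in control. Cd68 carried nearly all of the immune sum, with Adgre1 at 0 in every library, as Vim and Spp1 did most of the mesenchymal and duct sums. The 5 endothelial and acinar markers all had a mean below 1. Mitochondrially encoded genes held 1.26% to 1.38% of reads in knockdown libraries and 2.74% to 3.50% in control libraries. The part of these differences in the antisense results was not tested, and in bulk RNA fewer cells of a type and less RNA per cell cannot be told apart.

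Antisense transcripts were a small part of each library. The 171 transcripts held 0.0624%, 0.0625% and 0.0663% of the reads in the knockdown libraries, against 0.0719%, 0.0767% and 0.0763% in the control libraries. All 3 knockdown libraries lay below all 3 control libraries. Tug1 alone had 887, 912 and 983 reads in knockdown, against 1806, 1637 and 1867 in control. Among the 171, 44 reached 1 FPKM in control alone and 9 in knockdown alone, and their part in this difference was not tested. Their summed level was 411, 405 and 426 FPKM in knockdown, against 436, 485 and 459 FPKM in control. Over the whole biotype, 1011, 956 and 984 antisense rows had at least 1 read in the knockdown libraries, against 1183, 1193 and 1215 in the control libraries, at 14614737 to 16030939 reads per library. Fewer genes of any kind had a read in knockdown as well, 19560 to 19960 against 21421 to 21690 in control.

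Most of the transcripts were near the limit that chose them. Their mean FPKM had a median of 1.75 and ran from 1.01 to 25.5, and 99 of 171 were below 2 while 13 were at 5 or more. The median transcript was 876 bases long and had 28 reads per library. In 94 transcripts every library had under 50 reads, 106 had at least 10 reads in every library, and 3 had a library with no read. A count of 0 allows up to 3 reads, which for 1 kb of exon corresponds to 0.183 to 0.201 FPKM in these libraries, counting error only. Just inside the limit were Gm16172 (mean 1.02 FPKM), Gm47879 (1.01 FPKM) and Gm17172 (1.01 FPKM). Just outside it were 1500002C15Rik (0.997 FPKM), Gm11192 (0.996 FPKM) and Gm16740 (0.996 FPKM). Because both groups enter the mean, 118 transcripts reached 1 in both groups, 44 in control alone and 9 in knockdown alone, and transcripts of the last 2 kinds had to differ.

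The files give some information on how reads were assigned to a strand. Of 70 antisense rows whose exons lay wholly inside coding exons of the opposite strand, 1 had any read, with 3 over all 6 libraries together. Of 99 rows with more than 75% but not all of their exon bases there, 31 had a read and none reached a mean of 1 FPKM. Among the 1231 rows with no such overlap, 652 had a read, and among the 851 with up to 25%, 590 did. Between these, 292 of 422 rows with more than 25% and up to 50% had a read. So did 95 of 151 rows with more than 50% and up to 75%, so the share did not fall steadily with overlap. Exon bases in coding exons of the other strand thus rarely carried antisense reads where they were the only bases a row had. The library kit and strand setting used for counting are not stated beyond the kit name, so reads from a gene and its antisense partner cannot be told apart. Among the 171 transcripts the median share of exon bases in opposite coding exons was 6.95%, the highest 70.1%, and 65 had none. A median of 50.4% of their exon bases lay in introns of opposite coding genes, where reads of unspliced coding RNA could fall as well.

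**Figure D1:**
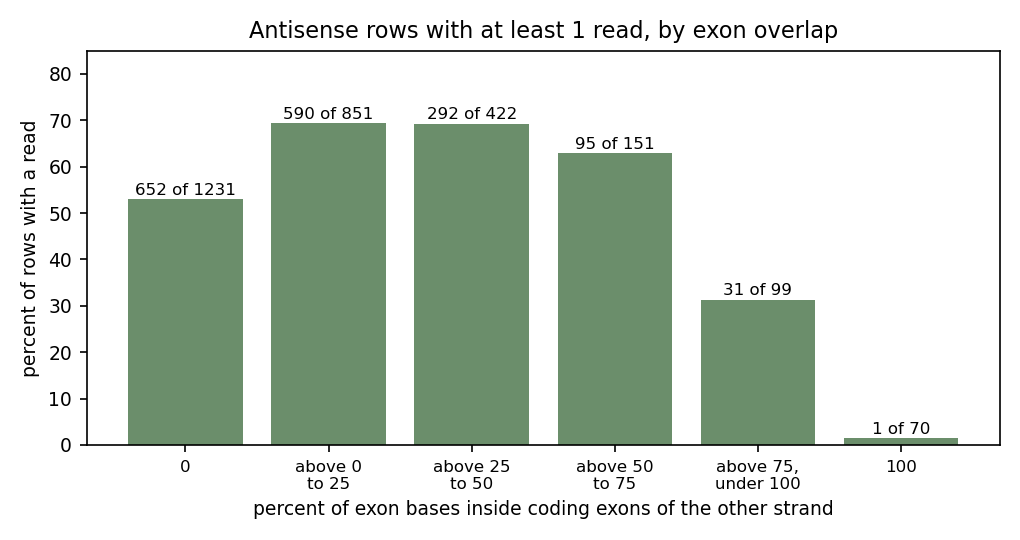
Share of antisense rows with at least 1 read in any of the 6 libraries (vertical axis, percent), by the share of their exon bases that lies inside coding exons of the other strand (horizontal axis, percent). Each bar carries its count: 652 of 1231 rows with no overlap had a read, against 1 of 70 rows that overlapped in full.

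More antisense transcripts were lower than higher after PP2Ac knockdown, while transcripts that reached the limit in control alone had to differ in that direction. In the fit over all 11652 genes with a mean of at least 1 FPKM, 88 of the 171 passed the threshold (51.5%), against 62.4% of all tested genes. Of these, 22 rose, where 33.3% of all tested genes were, and 66 were lower, where 29.1% of all tested genes were. The other 83 did not pass it. The median log2 change, knockdown minus control on the log2(FPKM + 1) scale, was -0.24 for the 171 transcripts and 0.03 over all tested genes. The 3924 tested genes with a mean under 5 FPKM had a median of -0.08, with 55.0% past the threshold, 24.0% higher and 31.0% lower. Among the 118 transcripts at 1 FPKM or more in both groups, 15 were higher (12.7%), 31 lower (26.3%) and 72 did not pass. Over all tested genes 33.3% were higher and 29.1% lower. Those genes were filtered on the mean over both groups only, so the sets are not alike. The 3 values of each group did not overlap in 97 transcripts, 27 with knockdown higher and 70 with knockdown lower, against 68.1% of all tested genes. A log2 change of at least 1 was passed by 8 transcripts upwards (4.68%) and 10 downwards (5.85%), near the 5.05% and 4.81% of all tested genes.

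Other non-coding classes had medians below and above that of the antisense transcripts. The 190 tested lincRNAs had a median log2 change of -0.27, with 31 higher and 78 lower, and the 23 sense-intronic transcripts had -0.69, with 0 higher and 14 lower. The 21 transcripts of the class bidirectional promoter lncRNA had a median of 0.16, with 4 higher and 1 lower. Protein-coding genes had a median of 0.06, with 3651 higher and 2870 lower of 10006. The coding neighbours themselves were close to that, at a median of 0.06. Among the 121 neighbours that were tested, 45 rose, 35 fell and 41 did not pass, and 26 more were below the filter.

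The transcript with the highest mean, Gm17201, did not differ detectably. It lies inside Ankrd52, the gene of an ankyrin repeat protein, on chromosome 10 (GRCm38, 128391842 to 128395563, minus strand), and 59.5% of its exon bases lie in coding exons of the other strand. It had 28.7, 21.9 and 29.2 FPKM in the knockdown libraries, against 23.4, 27.8 and 22.2 FPKM in the control libraries, and the groups overlapped (log2 change 0.11, SE 0.13, adjusted p = 0.459). Brip1os spans Ints2, which encodes an Integrator subunit, and also overlaps Med13, which encodes a part of the Mediator kinase module. It had 11.3, 11.2 and 10.5 FPKM in knockdown, against 12.9, 11.8 and 12.6 FPKM in control. The 3 knockdown values were the lowest, but the log2 change of -0.16 did not pass the test (adjusted p = 0.0758); it passed with median-of-ratios scaling at -0.20 (adjusted p = 0.0303). Ints2 averaged 3.56 ± 0.310 FPKM in knockdown and 3.93 ± 0.429 FPKM in control and did not pass the test either, while Med13 fell to 4.84 ± 0.482 FPKM in knockdown, against 7.76 ± 0.835 FPKM in control (SD, n = 3 each; log2 change -0.58, adjusted p = 0.00112). Tug1, a long non-coding RNA found in many tissues, fell with Morc2a, the gene of a GHKL-type ATPase that starts 179 bases away on the other strand. Tug1 had 5.89, 6.12 and 6.76 FPKM in knockdown, against 11.6, 10.8 and 11.7 FPKM in control, with no overlap (log2 change -0.77, SE 0.075, adjusted p = 6.57e-05). Morc2a averaged 14.0 ± 0.959 FPKM in knockdown and 23.3 ± 0.346 FPKM in control (log2 change -0.70), and the difference between the 2 changes did not pass its test (-0.07, SE 0.097, adjusted p = 0.578).

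The largest rise was that of Gm40304, which lies in introns of Rbpj, the gene of the DNA-binding effector of Notch signalling. Its 268-base spliced transcript in GENCODE M21 has 3 exons between 53546351 and 53547322 on chromosome 5 (minus strand) and is shown because few reads on a short sequence carry the value. Capitals mark the bases on either side of each of its exon junctions.
Gm40304: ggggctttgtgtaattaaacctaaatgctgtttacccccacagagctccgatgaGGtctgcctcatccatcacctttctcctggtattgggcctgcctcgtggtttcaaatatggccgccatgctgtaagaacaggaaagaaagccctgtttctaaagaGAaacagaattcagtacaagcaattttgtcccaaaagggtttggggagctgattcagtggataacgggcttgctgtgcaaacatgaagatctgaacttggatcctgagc
Gm40304 had 13.5, 16.1 and 18.2 FPKM in the knockdown libraries, against 0.233, 0 and 1.36 FPKM in the control libraries, from 56, 66 and 73 reads and from 1, 0 and 6 reads. Every knockdown library was far above every control library (log2 change 3.56, SE 0.28, adjusted p = 2.71e-05), and as its control mean was below 1 it reached the limit through the knockdown group. With a pseudocount of 0.1 the log2 change was 5.45. Rbpj had 17.9, 15.8 and 17.7 FPKM in knockdown, against 22.4, 22.3 and 23.6 FPKM in control, so it fell (log2 change -0.39, SE 0.071, adjusted p = 0.00169). The difference between the 2 changes was 3.95 (SE 0.28, adjusted p = 4.85e-05).

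Ptprtos rose inside Ptprt, the gene of a receptor-type tyrosine phosphatase. It had 13.2, 15.6 and 16.3 FPKM in the knockdown libraries, against 1.98, 1.94 and 2.51 FPKM in the control libraries (log2 change 2.35, SE 0.10, adjusted p = 2.57e-06). Ptprt was below the filter, at 0.169, 0.150 and 0.218 FPKM in knockdown, against 1.64, 1.17 and 1.52 FPKM in control, so it was not tested, and its groups did not overlap. All exon bases of Ptprtos lie in introns of Ptprt. Its RefSeq promoter (GRCm38.p6, chr2:162390563-162390862, plus strand) is printed with CG dinucleotides in capitals and holds 0 of them, as 5.43% of the 32851 promoters of the same length in that set do.
Ptprtos: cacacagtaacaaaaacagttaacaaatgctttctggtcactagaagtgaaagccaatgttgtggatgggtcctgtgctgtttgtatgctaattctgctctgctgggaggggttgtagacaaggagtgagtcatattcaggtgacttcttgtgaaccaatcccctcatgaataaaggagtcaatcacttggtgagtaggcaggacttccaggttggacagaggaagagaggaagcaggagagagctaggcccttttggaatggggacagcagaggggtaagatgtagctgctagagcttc

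Other transcripts that rose lay beside coding genes of several kinds. Gm26737 had 8.44, 9.0 and 8.27 FPKM in knockdown, against 0.900, 1.38 and 1.36 FPKM in control (log2 change 2.12, SE 0.11, adjusted p = 4.43e-06). It starts 594 bases from Rnf26, the gene of a ubiquitin ligase of the endoplasmic reticulum, on the other strand. Rnf26 averaged 2.03 ± 0.347 FPKM in knockdown and 1.42 ± 0.347 FPKM in control and did not pass the test (log2 change 0.33, adjusted p = 0.0796), though it did without knockdown replicate 3 (0.43) or control replicate 2 (0.42). The difference between Gm26737 and Rnf26 was 1.79 (SE 0.13, adjusted p = 4.85e-05). 9530082P21Rik had 6.02, 6.70 and 5.97 FPKM in knockdown, against 1.06, 0.959 and 1.09 FPKM in control (log2 change 1.83, SE 0.089, adjusted p = 3.79e-06). Its largest overlap was with Kremen2, the gene of a Dickkopf receptor of the Wnt pathway, which averaged 0.0105 FPKM in knockdown and 0.0298 FPKM in control. It also overlapped Flywch1, a zinc finger gene, which averaged 26.5 ± 3.01 FPKM in knockdown and 11.5 ± 1.14 FPKM in control (SD, n = 3 each; log2 change 1.14). Gm9869, which lies in introns of Uaca, had 5.71, 6.82 and 7.19 FPKM in knockdown, against 1.10, 1.14 and 2.06 FPKM in control (log2 change 1.65, SE 0.16, adjusted p = 6.12e-05). Uaca, which encodes a coiled-coil protein, rose less, to 14.7 ± 0.919 FPKM in knockdown, against 9.16 ± 0.717 FPKM in control, and the difference passed its test (1.03, SE 0.13, adjusted p = 0.000553).

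Dhx58os rose together with Dhx58, which encodes LGP2, a sensor of viral RNA of the RIG-I family. Dhx58os had 2.76, 2.38 and 2.60 FPKM in knockdown, against 0.392, 0.243 and 0.459 FPKM in control (log2 change 1.39, SE 0.12, adjusted p = 4.23e-05). Dhx58 had 16.4, 16.8 and 18.3 FPKM in knockdown, against 2.54, 3.47 and 3.16 FPKM in control (log2 change 2.17, SE 0.099, adjusted p = 2.95e-06). Neither pair of groups overlapped. Dhx58os was below 1 FPKM in every control library, so it reached the limit through the knockdown group. The difference of their changes was -0.78 on this scale (SE 0.18, adjusted p = 0.00765), but with a pseudocount of 0.1 it was 0.09 (adjusted p = 0.837), so the order of the 2 rises was set by the scale. By overlap in bases its neighbour was Zfp385c, a zinc finger gene with 0.0420 FPKM in knockdown and 0.0139 FPKM in control. 1810021B22Rik had 4.91, 7.80 and 3.89 FPKM in knockdown, against 1.67, 2.45 and 1.83 FPKM in control (log2 change 1.09, adjusted p = 0.00197). It runs tail to tail with Panx2, a pannexin gene with a mean of 0.127 FPKM in knockdown and 0.0860 FPKM in control, and it also overlaps Trabd, which averaged 36.0 ± 2.19 FPKM in knockdown and 21.4 ± 2.70 FPKM in control (log2 change 0.73). Gm11816 averaged 2.52 ± 0.647 FPKM in knockdown and 0.484 ± 0.226 FPKM in control (log2 change 1.24), inside Clvs1, which was at 0.167 FPKM in knockdown and 0.0631 FPKM in control. Gm11816 also reached the limit through the knockdown group. Gm12473 rose with Npr2, the receptor gene of C-type natriuretic peptide. It averaged 9.39 ± 1.67 FPKM in knockdown and 4.94 ± 0.348 FPKM in control (log2 change 0.79, adjusted p = 0.000679), and Npr2 averaged 18.05 ± 1.42 FPKM in knockdown and 7.46 ± 0.369 FPKM in control (log2 change 1.17). Gm13375, which has no overlapping coding gene, averaged 10.45 ± 2.15 FPKM in knockdown and 4.80 ± 1.35 FPKM in control (log2 change 0.99, adjusted p = 0.00182).

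**Figure D2:**
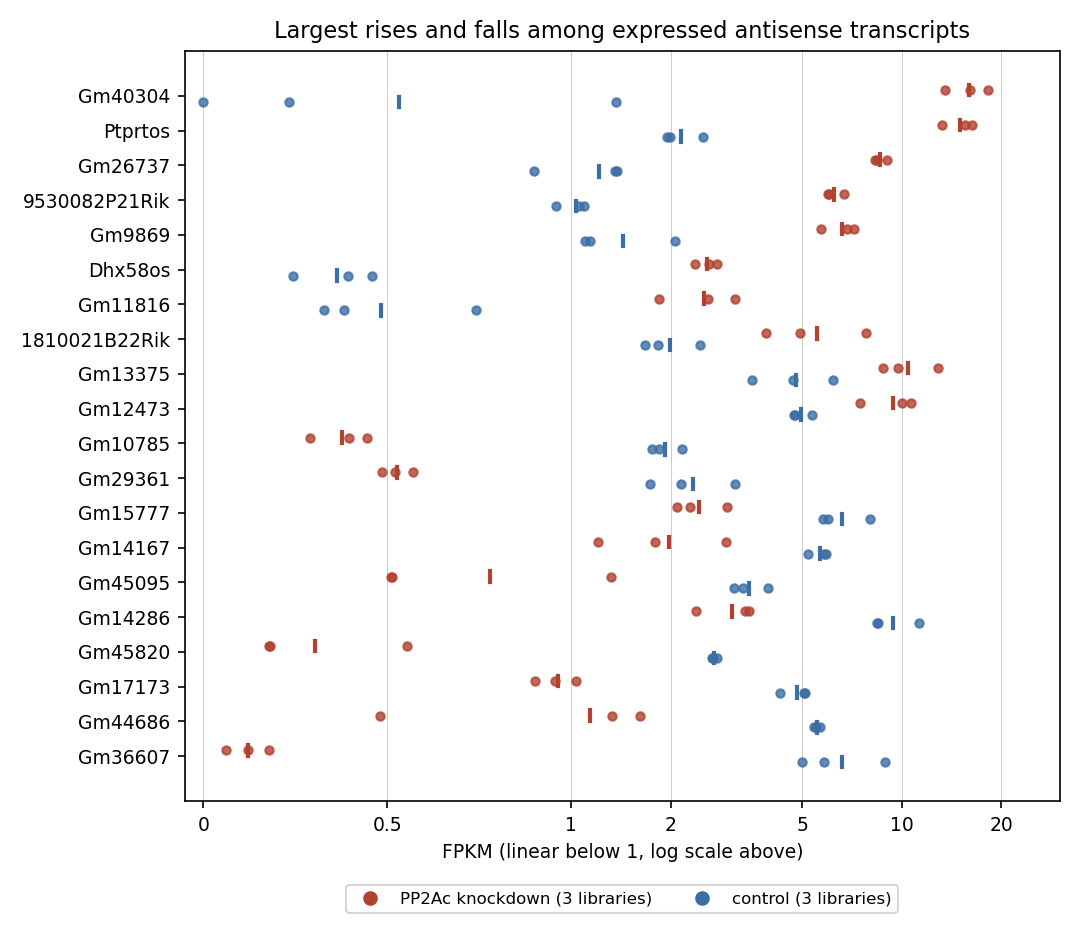
FPKM (horizontal axis, linear below 1 and logarithmic above) of the 10 antisense transcripts with the largest rises and the 10 with the largest falls past the threshold, 1 transcript per line, with each of the 3 PP2Ac knockdown and 3 control libraries as a point and the group mean as a bar. The groups do not overlap in any of the 20, from Gm40304 at a log2 change of 3.56 to Gm36607 at -2.72.

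The largest fall was that of Gm36607, which runs tail to tail with Adamts16, the gene of a secreted metalloprotease. Gm36607 had 0.178, 0.120 and 0.0616 FPKM in the knockdown libraries, against 8.91, 5.81 and 4.99 FPKM in the control libraries, from 3, 2 and 1 reads and from 155, 98 and 89 reads (log2 change -2.72, SE 0.18, adjusted p = 1.18e-05). The groups were far apart, and the control group carried it past the limit. The log2 change was -4.91 with a pseudocount of 0.1 and -5.50 with voom on the recovered reads. Adamts16 was at 0 in every knockdown library and at 0.0274, 0.0189 and 0 FPKM in the control libraries. The RefSeq promoter of Gm36607 (GRCm38.p6, chr13:70705902-70706201, plus strand), whose start site is 81 bases from that of the deposited table, holds 1 CG, in capitals.
Gm36607: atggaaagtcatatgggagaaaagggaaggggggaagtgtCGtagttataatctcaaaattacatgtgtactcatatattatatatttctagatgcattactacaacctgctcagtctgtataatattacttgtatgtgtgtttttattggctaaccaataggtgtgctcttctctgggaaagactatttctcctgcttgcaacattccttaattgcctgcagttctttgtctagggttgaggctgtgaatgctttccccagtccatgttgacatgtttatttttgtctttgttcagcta

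Several transcripts fell beside a coding gene that fell as well. Gm44686 had 0.479, 1.33 and 1.61 FPKM in knockdown, against 5.44, 5.49 and 5.64 FPKM in control (log2 change -1.65, SE 0.19, adjusted p = 0.000167). It lies head to head with Chd2, the gene of a chromatin remodeller, which averaged 3.31 ± 0.344 FPKM in knockdown and 9.15 ± 0.280 FPKM in control (log2 change -1.24), and the difference of the changes did not pass its test (-0.41, SE 0.20, adjusted p = 0.122). Gm45095 lies inside Cebpg, a bZIP transcription factor gene, and had 0.509, 0.514 and 1.32 FPKM in knockdown, against 3.94, 3.30 and 3.12 FPKM in control, from 2 to 5 and from 13 to 16 reads (log2 change -1.35, SE 0.18, adjusted p = 0.000325). Cebpg averaged 10.5 ± 0.493 FPKM in knockdown and 24.9 ± 1.57 FPKM in control (log2 change -1.17). Gm29361 lies inside Rbm25, the gene of a splicing regulator. It averaged 0.526 ± 0.0421 FPKM in knockdown and 2.34 ± 0.713 FPKM in control (log2 change -1.11), and Rbm25 averaged 3.94 ± 0.675 FPKM in knockdown and 9.10 ± 0.0526 FPKM in control (log2 change -1.04). The difference from the neighbour did not pass its test in these 3 pairs on this scale, which compresses the change of the lower gene. With a pseudocount of 0.1 it was -0.88 for Gm44686 (adjusted p = 0.0801), -0.89 for Gm45095 (adjusted p = 0.0481) and -0.73 for Gm29361 (adjusted p = 0.0723). As a percentage of its neighbour's mean FPKM, Gm44686 was at 34.5% in knockdown and 60.4% in control, Gm45095 at 7.42% in knockdown and 13.8% in control, and Gm29361 at 13.3% in knockdown and 25.7% in control. Gm10785 averaged 0.377 ± 0.0795 FPKM in knockdown and 1.92 ± 0.216 FPKM in control (log2 change -1.08). Its largest overlap was with an entry named Atp5o that was at 0 in all 6 libraries, and it also overlapped Cryzl1, which averaged 7.89 ± 0.471 FPKM in knockdown and 18.6 ± 0.447 FPKM in control (log2 change -1.14). The sign of the difference between Gm10785 and Cryzl1 depended on the pseudocount, at 0.06 with 1 and -0.86 with 0.1. Gm45095, Gm29361 and Gm10785 had knockdown means below 1 FPKM, so the control group carried them past the limit.

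Other falls exceeded that of the neighbour or had no tested neighbour. Gm45820, in introns of Tom1, an endosomal trafficking gene, had 0.179, 0.180 and 0.555 FPKM in knockdown, against 2.76, 2.67 and 2.69 FPKM in control, from 1 to 3 and from 15 to 16 reads (log2 change -1.52, SE 0.14, adjusted p = 5.78e-05). Tom1 averaged 7.25 ± 0.690 FPKM in knockdown and 11.4 ± 1.75 FPKM in control, and the difference between the changes was -0.94 (SE 0.21, adjusted p = 0.0063). Gm15777, head to head with Coq2, a gene of coenzyme Q synthesis, averaged 2.44 ± 0.452 FPKM in knockdown and 6.58 ± 1.23 FPKM in control (log2 change -1.13), with a difference from Coq2 of -0.78 (adjusted p = 0.00707). Gm17173 spans Ptger2, a prostaglandin E2 receptor gene that averaged 0.0295 FPKM in knockdown and 0.186 FPKM in control. It had 0.956, 0.902 and 1.03 FPKM in knockdown, against 4.28, 5.07 and 5.09 FPKM in control (log2 change -1.56, SE 0.10, adjusted p = 1.01e-05). Gm14286 averaged 3.07 ± 0.587 FPKM in knockdown and 9.38 ± 1.62 FPKM in control (log2 change -1.35). Gm14167 averaged 1.98 ± 0.880 FPKM in knockdown and 5.64 ± 0.384 FPKM in control (log2 change -1.20). Neither overlaps a coding gene of the other strand in the table. Gm45820 and Gm17173 had knockdown means below 1 FPKM, so the control group carried them past the limit.

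The transcripts were also counted by position relative to the coding gene, beside 33.3% higher and 29.1% lower over all tested genes. Of the 41 head-to-head transcripts, whose starts lie in the overlap with the start of the coding gene, 12 rose, 11 fell and 18 did not pass, with a median log2 change of -0.01. Of the 73 that lie inside the neighbour, 6 rose, 33 fell and 34 did not pass, with a median of -0.34. The 30 tail-to-tail transcripts had 2 higher, 11 lower and 17 not past it, with a median of -0.32, and the 23 without a neighbour had 2, 9 and 12, with a median of -0.24. The 4 that span their neighbour had 2 lower and 2 not past it. By exon bases, the 86 transcripts with at least 50% of them in introns of the other strand had 9 higher and 37 lower (median -0.35), and the 65 with at least 50% outside coding genes had 11 higher and 22 lower (median -0.16). These counts describe the classes, and the difference between them was not tested.

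**Figure D3:**
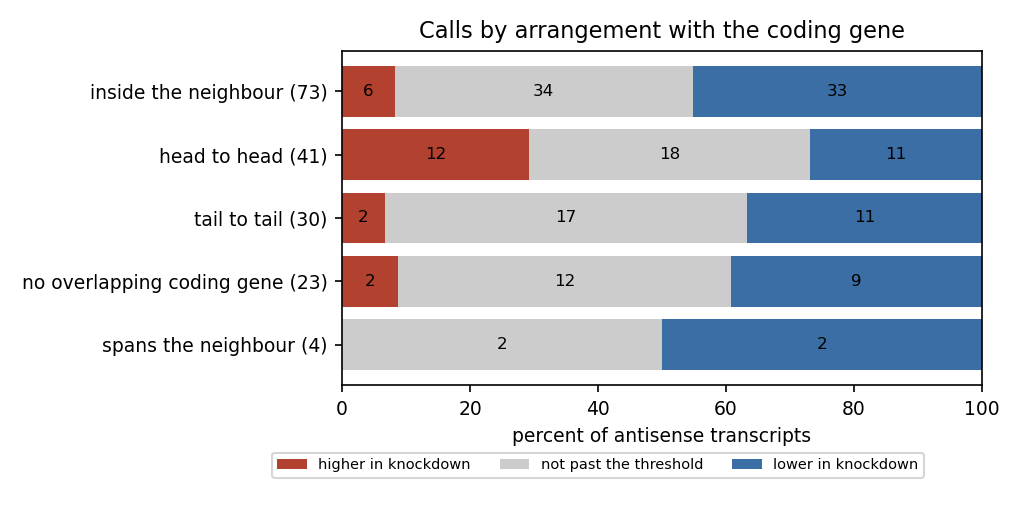
Percent of antisense transcripts (horizontal axis) that were higher in PP2Ac knockdown, not past the threshold or lower in knockdown, for each arrangement with the coding gene of the other strand, with the number of transcripts in each segment. Head-to-head transcripts have 12 higher and 11 lower, against 6 higher and 33 lower among those inside the neighbour.

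Antisense transcripts and their neighbours had the same sign of change in a small majority of pairs. Both genes were tested in 122 pairs, and 70 of them (57.4%) had the same sign. In 804 overlapping pairs of coding genes on opposite strands, 466 (58.0%) did. Both genes passed the threshold in 40 antisense pairs, of which 27 moved the same way, 22 of them down and 5 up, and 13 moved in opposite directions. In 11 of these 13 the antisense transcript fell and the coding gene rose. Of the 171 transcripts, 44 reached 1 FPKM in control alone and 9 in knockdown alone, and their part in these counts was not tested. The opposite pairs numbered 5 without knockdown replicate 2, 7 without control replicate 1, 8 without control replicate 2 and 5 with no filter on low values. Among the coding pairs, both passed in 329, of which 217 moved the same way and 112 in opposite directions. The same sign was held by 25 of 36 head-to-head pairs, 33 of 62 pairs with the transcript inside and 11 of 22 tail-to-tail pairs. Across the 122 pairs the log2 changes of the 2 genes had a Pearson r of 0.34 and a Spearman rho of 0.41, with 0.52 and 0.54 over the 36 head-to-head pairs and 0.05 and 0.03 over the 22 tail-to-tail pairs. Over the 804 coding pairs r was 0.24 and rho 0.23. These correlations are over genes of the same 6 libraries, which are not independent replicates, and each pair shares its locus and possibly reads.

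**Figure D4:**
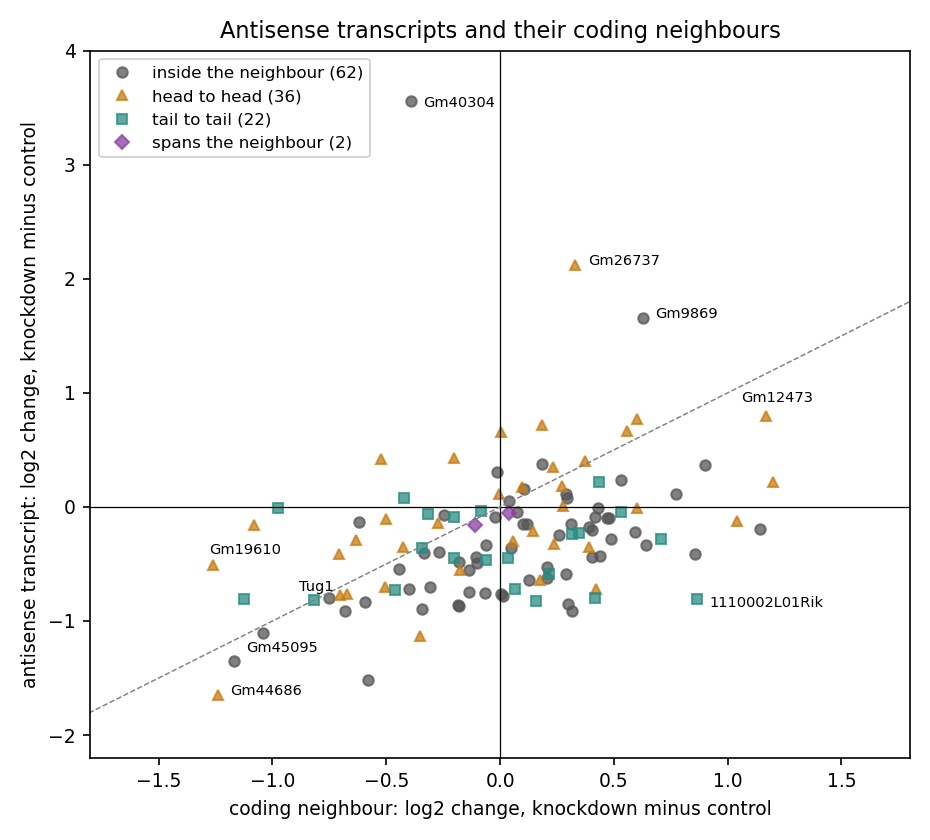
Log2 change, knockdown minus control on log2(FPKM + 1), of the coding neighbour (horizontal axis) and of the antisense transcript (vertical axis) for the 122 pairs with both genes tested, with the arrangement as symbol; the dashed line marks equal changes. The points scatter with r = 0.34, and Gm40304 at 3.56 stands above a neighbour that fell.

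The change of the transcript differed from that of its neighbour in 54 of the 122 pairs (44.3%) by a test of the difference itself, against 53.6% of the 1156 overlapping pairs in that fit and 472 of the 804 coding pairs (58.7%). The antisense transcript had the higher change in 10 and the lower in 44, and the median difference was -0.31. The 171 transcripts were chosen by the mean over both groups, which weighs the groups alike. Of these, 44 reached 1 FPKM in control alone and 9 in knockdown alone, and their part in that direction was not tested. By mean level the coding gene exceeded the transcript in both groups in 106 of 148 pairs, the transcript exceeded the gene in 36, and the order differed between the groups in 6. The transcript stood at a median of 13.4% of its neighbour's FPKM in knockdown and 17.6% in control, over the 122 pairs. Mean levels on the log2 scale had a Pearson r of 0.02 and a Spearman rho of -0.02 across those pairs.

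The opposite pair with the largest difference after Gm40304 and Rbpj was 1110002L01Rik and Kif3c, the gene of a kinesin motor subunit. 1110002L01Rik (chromosome 12, 3403878 to 3427011, minus strand) had 0.986, 0.949 and 0.956 FPKM in the knockdown libraries, against 2.34, 2.53 and 2.43 FPKM in the control libraries (log2 change -0.81, SE 0.10, adjusted p = 0.000217). Kif3c had 5.0, 5.09 and 3.93 FPKM in knockdown, against 1.98, 2.39 and 1.96 FPKM in control (log2 change 0.86, SE 0.11, adjusted p = 0.000282). Neither gene's groups overlapped, and the difference of the changes was -1.67 (SE 0.14, adjusted p = 8.77e-05). The transcript was below 1 FPKM in every knockdown library, so the control group carried it past the limit. The pair runs tail to tail, and 67.1% of the exon bases of 1110002L01Rik lie in coding exons of the other strand. At its other end the transcript overlaps Asxl2, the gene of a chromatin regulator, which had 2.40, 2.30 and 2.67 FPKM in knockdown, against 4.69, 4.41 and 5.40 FPKM in control (log2 change -0.75, SE 0.096, adjusted p = 0.000252). The change of 1110002L01Rik did not differ detectably from that of Asxl2 (difference -0.05, SE 0.13, adjusted p = 0.755). The transcript thus fell with the gene beside its start, and the gene at its end rose. The RefSeq promoters of 1110002L01Rik (GRCm38.p6, chr12:3426698-3426997, minus strand) and Asxl2 (chr12:3426607-3426906, plus strand) share 209 bases on opposite strands, and their RefSeq starts are 110 bases apart. They are printed to show that shared stretch, with CG dinucleotides in capitals.
1110002L01Rik: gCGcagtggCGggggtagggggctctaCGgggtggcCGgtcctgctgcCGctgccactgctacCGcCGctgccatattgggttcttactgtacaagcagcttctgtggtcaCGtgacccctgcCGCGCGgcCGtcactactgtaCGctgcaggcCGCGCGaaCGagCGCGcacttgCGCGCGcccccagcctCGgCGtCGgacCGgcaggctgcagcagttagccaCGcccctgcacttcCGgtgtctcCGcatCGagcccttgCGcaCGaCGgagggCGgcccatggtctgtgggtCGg
Asxl2: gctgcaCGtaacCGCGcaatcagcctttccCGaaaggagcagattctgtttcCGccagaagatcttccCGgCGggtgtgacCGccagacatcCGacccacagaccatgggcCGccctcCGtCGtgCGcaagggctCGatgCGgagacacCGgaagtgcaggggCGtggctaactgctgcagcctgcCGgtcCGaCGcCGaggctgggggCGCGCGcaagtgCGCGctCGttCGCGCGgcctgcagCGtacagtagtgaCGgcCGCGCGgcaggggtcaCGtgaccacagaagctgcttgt
They hold 35 and 36 CG, where 6.95% and 6.23% of the 32851 promoters hold at least as many. The deposited start of 1110002L01Rik lies 264 bases from the RefSeq start. RefSeq promoters were found for 67 of the 171 transcripts and 112 of the 147 neighbours. Their median was 15 CG for the transcripts and 23 for the neighbours, against 7 over all promoters in the set. That set was not limited to expressed genes.

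Other opposite pairs were smaller or rested on few reads. Gm10550, inside Thap4, had 1.51, 0.997 and 1.84 FPKM in knockdown, against 2.23, 2.04 and 2.42 FPKM in control (log2 change -0.41, adjusted p = 0.0361). Its call was lost without filter on low values, with voom and on leaving out each of 5 libraries, all but knockdown replicate 3, and 70.1% of its exon bases lie in coding exons of the other strand. Thap4 averaged 6.55 ± 0.454 FPKM in knockdown and 3.17 ± 0.438 FPKM in control (log2 change 0.86), and the difference was -1.27 (adjusted p = 0.00128). Gm31749 averaged 0.404 ± 0.172 FPKM in knockdown and 1.72 ± 0.786 FPKM in control (log2 change -0.92, adjusted p = 0.00897), inside Kif22, the gene of a chromosome-binding kinesin that averaged 18.1 ± 0.592 FPKM in knockdown and 14.5 ± 2.02 FPKM in control (log2 change 0.32, adjusted p = 0.0234). Gm16897 averaged 1.06 ± 0.296 FPKM in knockdown and 2.56 ± 0.349 FPKM in control (log2 change -0.80), tail to tail with Cd34, a surface glycoprotein gene of progenitor and endothelial cells that averaged 105 ± 6.13 FPKM in knockdown and 78.8 ± 8.62 FPKM in control (log2 change 0.42). Gm16536 had 1.87, 2.05 and 1.98 FPKM in knockdown, against 4.13, 3.98 and 5.02 FPKM in control (log2 change -0.85), inside Bace1, the beta-secretase gene, which averaged 8.55 ± 0.351 FPKM in knockdown and 6.79 ± 0.855 FPKM in control (log2 change 0.30, adjusted p = 0.0197). The groups of none of these genes overlapped, and the differences were -1.23 for Gm31749, -1.22 for Gm16897 and -1.15 for Gm16536. Gm31749 had a knockdown mean below 1 FPKM, so the control group carried it past the limit. The calls of the coding genes Bace1 and Kif22 were lost when mitochondrial genes, rRNA and Gm23935 were removed before scaling (adjusted p = 0.0775 and 0.0737), and on leaving out knockdown replicate 2 (0.27 for Bace1 and 0.29 for Kif22). Control replicates 1 and 2 decided the call of Bace1 too (0.26 and 0.25 without them), and knockdown replicate 1 that of Kif22 (0.32 without it).

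**Figure D5:**
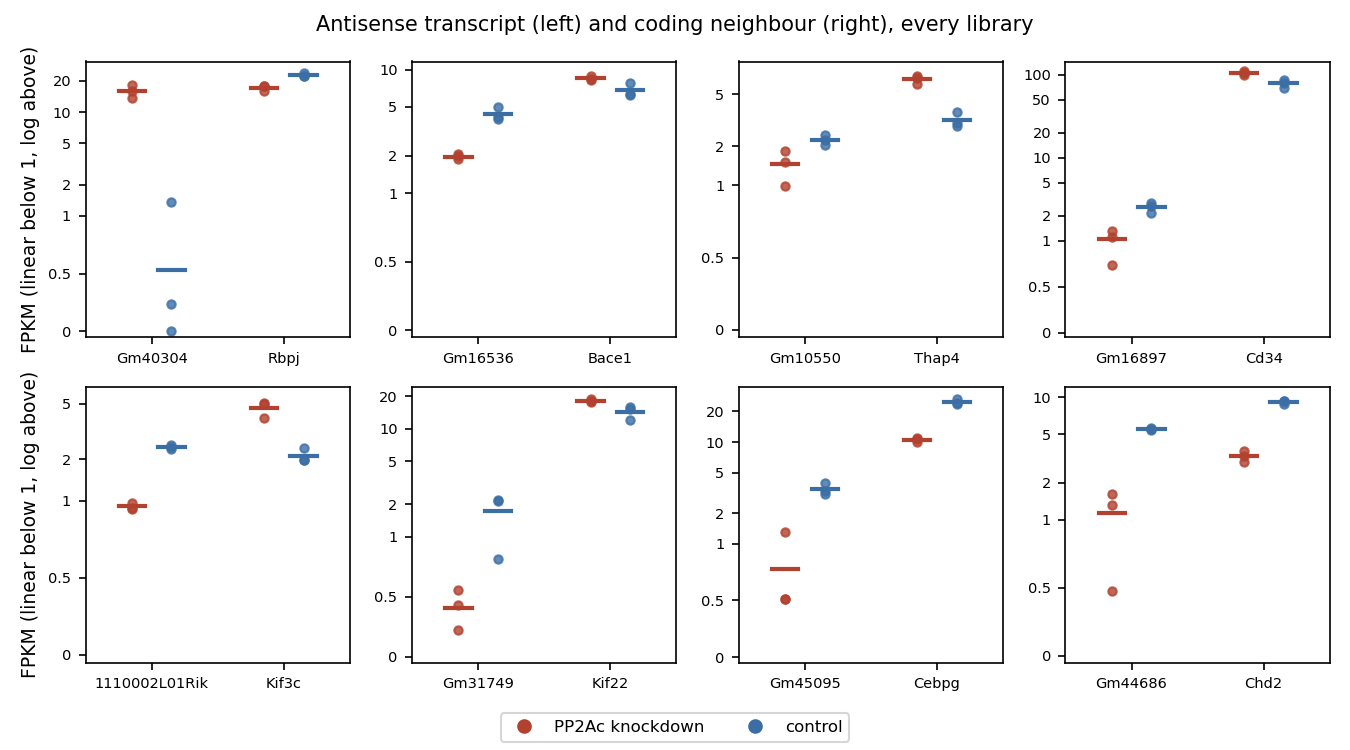
FPKM (vertical axis, linear below 1 and logarithmic above, with its own range in each panel) of 8 antisense transcripts and their coding neighbours in each of the 3 PP2Ac knockdown and 3 control libraries, as points with the group mean as a bar. The first 6 pairs moved in opposite directions, from Gm40304 and Rbpj to Gm31749 and Kif22, and in Gm45095 with Cebpg and Gm44686 with Chd2 both genes fell.

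Further pairs, picked with their values in view, are given as values. 6330403L08Rik averaged 5.55 ± 0.576 FPKM in knockdown and 3.12 ± 0.396 FPKM in control (log2 change 0.67, adjusted p = 0.000770), and Pdgfa, the gene of a platelet-derived growth factor head to head with it, averaged 11.3 ± 0.834 FPKM in knockdown and 7.34 ± 0.205 FPKM in control (log2 change 0.56). Phf2os1 starts 7 bases from Phf2, a histone demethylase gene, and averaged 2.38 ± 0.665 FPKM in knockdown and 1.01 ± 0.606 FPKM in control, while Phf2 averaged 26.7 ± 1.26 FPKM in knockdown and 17.2 ± 0.484 FPKM in control. Both genes of these pairs rose. 6330562C20Rik averaged 1.58 ± 0.187 FPKM in knockdown and 3.39 ± 0.434 FPKM in control, and fell with Cers2, the ceramide synthase 2 gene, which averaged 91.5 ± 6.48 FPKM in knockdown and 146 ± 1.65 FPKM in control (log2 changes -0.76 and -0.67). Gm19610 starts 151 bases from Ereg, the gene of the growth factor epiregulin. Gm19610 fell by 0.51 and Ereg by 1.26 on the log2 scale, and the difference passed its test (0.75, SE 0.17, adjusted p = 0.00633). With a pseudocount of 0.01 the difference was 0.63 and did not pass (adjusted p = 0.0561). Gt(ROSA)26Sor, from the locus widely used to insert transgenes, averaged 3.24 ± 0.745 FPKM in knockdown and 5.97 ± 0.474 FPKM in control, and fell with Thumpd3 (log2 changes -0.73 and -0.46). 1700052K11Rik, head to head with Tlk2, a kinase gene, was the other transcript besides Gm40304 that rose beside a coding gene that fell (log2 changes 0.42 and -0.52).

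Lists of genes that process such RNA were read against all tested genes, of which 62.4% were called, 33.3% higher and 29.1% lower. Of 14 Integrator subunits, 5 rose, 1 fell and 8 did not pass the test. Ints3 averaged 33.9 ± 1.99 FPKM in knockdown and 23.0 ± 0.506 FPKM in control (log2 change 0.54), and Ints1, Ints5 and Ints7 rose by 0.49, 0.51 and 0.43 on the log2 scale. Of 19 tested genes of the nuclear exosome and its adaptors, 1 was higher, 10 were lower and 8 were not past it, with a median log2 change of -0.29. Zfc3h1, an adaptor that brings polyadenylated nuclear RNA to the exosome, averaged 6.25 ± 1.22 FPKM in knockdown and 16.6 ± 0.855 FPKM in control (log2 change -1.29, adjusted p = 4.65e-05). Skiv2l2, which encodes the exosome helicase MTR4, averaged 6.95 ± 0.569 FPKM in knockdown and 12.6 ± 0.723 FPKM in control (log2 change -0.78), and the exosome genes Mphosph6 and Exosc8 had log2 changes of -0.59 and -0.55. Of 17 genes of cleavage, polyadenylation and termination, 3 were higher, 10 lower and 4 not past it (median -0.21). Pcf11, a termination factor gene, averaged 3.76 ± 0.570 FPKM in knockdown and 8.05 ± 0.487 FPKM in control (log2 change -0.93), while Xrn2, Clp1 and Cstf3 had -0.50, -0.56 and -0.44.

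Of 18 genes listed for the sensing, editing or processing of double-stranded RNA, 12 rose, 1 fell and 5 did not pass the test (median 0.40). Among all tested genes 33.3% rose and 29.1% fell. Mavs, the adaptor of the RNA sensors, averaged 38.0 ± 2.72 FPKM in knockdown and 19.0 ± 0.0646 FPKM in control (log2 change 0.96). Ddx58, which encodes RIG-I, averaged 25.3 ± 1.17 FPKM in knockdown and 13.1 ± 1.21 FPKM in control (log2 change 0.90), and Adar, an adenosine deaminase of RNA, averaged 26.6 ± 1.00 FPKM in knockdown and 14.5 ± 0.583 FPKM in control (log2 change 0.83). Dhx58 is on this list as well. Of 10 genes of nonsense-mediated decay, 6 were higher and 3 lower, among them Smg5 (log2 change 0.67) and Upf3b, Upf2 and Smg1 (-0.66, -0.62 and -0.48). Of 8 genes that act on RNA:DNA hybrids, 2 were higher and 2 lower: Rnaseh2c and Rnaseh2a had log2 changes of 0.55 and 0.23, and the helicase gene Ddx5 and the topoisomerase gene Top1 had -0.84 and -0.34. The calls of Top1 and Rnaseh2a were each lost under 5 alternatives, at adjusted p from 0.0552 to 0.10.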

How the data were processed

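RNA of 6 libraries was extracted with Trizol and made into libraries with an Illumina TruSeq kit, per the labels' protocols. The authors deposited FPKM values for 54532 Ensembl genes with biotype, position, strand and length. The builds are GRCm38 and mm10, per the submitters' processing notes; how reads were aligned, counted and assigned to a strand is not given in the sources used here. FPKM times gene length came out as whole reads for 100% of non-zero values within 0.01, which gave 14614737 to 16030939 reads per library.

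Genes with a mean of at least 1 FPKM were tested on log2(FPKM + 1) with the moderated linear model of limma 3.58.1, eBayes trend on, under R 4.3.3. This is a scale that understates the change of low genes. The p-values were adjusted over all 11652 tested genes by Benjamini-Hochberg, with a threshold of 0.05. Pair differences were tested in the same way over 1156 overlapping opposite-strand pairs of the table with a protein-coding member. Exons came from GENCODE M21, which holds 99.9% of the deposited gene identifiers and all 171 antisense transcripts, 169 of them with the same start, end and strand. Promoters came from RefSeq (GRCm38.p6). Tables were made with pandas 2.3.3, scipy 1.17.1 and numpy 2.4.6 under Python 3.11.15, and the scripts were tested on simulated data.

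Antisense transcripts were named by rule: the 6 highest means, the 10 largest rises and 10 largest falls past the threshold, the 6 opposite pairs with the largest difference, well-known antisense RNAs, and the 3 rows on either side of the limit. 1 result under this rule is not reported here. Others named were chosen after their values were seen. The transcripts and gene lists were chosen with earlier results of these data known. Replicate numbers did not pair the samples, so no block entered the main fit.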

Additional observations from a re-analysis of the deposited data

How the results depend on the processing

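The main counts were 88 antisense transcripts, 80 neighbours, 27 same-direction pairs, 13 opposite pairs and 54 pair differences past the threshold. No named gene's log2 change reversed under the alternatives run. With a mean of at least 5 FPKM, which leaves 13 transcripts, they were 9, 7, 3, 2 and 3. Without a filter on low values there were 5 opposite pairs. On leaving out each library in turn the ranges were 73 to 82 transcripts, 71 to 78 neighbours, 21 to 25 same-direction pairs, 42 to 49 pair differences and 5 to 11 opposite pairs, with 5 without knockdown replicate 2, 7 without control replicate 1 and 8 without control replicate 2. Between 6462 and 6950 genes of the whole series were then called, against 7267, and Ppp2ca stayed between -1.76 and -1.61. The other alternatives left these counts within 1.5 times. Pair differences were not tested with voom on the recovered reads.

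The split of antisense calls was 22 higher and 66 lower, with 19 and 69 after removal of mitochondrial genes, rRNA and Gm23935, 17 and 43 without a filter, 20 and 55 with voom, and 22 and 64 with a pseudocount of 0.1. That pseudocount moved 15 of 29 called named transcripts by over 1.5 times, and voom moved 14 of them, in each case away from 0; Gm40304 was among the 15 at 5.45 against 3.56, and Gm36607 among both at -4.91 and -5.50 against -2.72. Of the differences in 32 named pairs, 17 passed the threshold, and of these Dhx58os minus Dhx58 turned sign, from -0.78 with a pseudocount of 1 to 0.09 with 0.1 and 0.34 with 0.01. The difference of Gm19610 from Ereg lost its call with a pseudocount of 0.01. That of Gm47879 from its coding neighbour Erh lost it with a replicate block and on leaving out any library but knockdown replicate 1. Among the pairs that had not passed, the sign turned in 7 under some alternative. The falls of Gm10550, Gm16172 and Gm17172 lost their calls under several alternatives, and without knockdown replicate 2, knockdown replicate 3 and control replicate 2 their log2 changes were -0.27, -0.28 and -0.56. Gm16172, Gm17172 and Gm47879 had knockdown means below 1 FPKM, so the control group carried them past the limit. Same-numbered libraries had deviation correlations of -0.01, 0.16 and 0.05, so the numbers did not pair them; with a replicate block 85 transcripts, 79 neighbours, 26 same-direction pairs, 11 opposite pairs and 49 differences were called. Read number limits the low transcripts, 94 of 171 having under 50 reads in every library.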
